A study of Homo sapiens with 4 samples.

Results

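The mRNAs of 9 antioxidant and detoxification genes that the transcription factor NRF2 is known to switch on were followed through an RNA immunoprecipitation experiment in a human liver cancer cell line. The genes were NQO1, TXNRD1, GCLM, GCLC, SRXN1, PRDX1, AKR1C1, AKR1B10 and GSTP1, and every transcript carrying one of these gene names was taken. This gave 30 of 34975 listed transcripts, belonging to 8 of 13300 genes. AKR1B10, an aldo-keto reductase, is not analysed here.

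RNA was sequenced after immunoprecipitation from HCCLM3 cells, an established line from hepatocellular carcinoma, either by an antibody to KIAA1429 or by normal IgG, the control. Each antibody had 2 libraries, called IgG RIP replicates 1 and 2 and KIAA1429 RIP replicates 1 and 2, and no other treatment is named for either group. The labels do not say whether replicates came from separate cultures, so p-values measure only the spread between these libraries, which may be technical. The comparison asks which mRNAs were more or less abundant in the KIAA1429 precipitate than in the IgG precipitate.

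NRF2, encoded by NFE2L2, is held at a low level by KEAP1, an adaptor that directs it to a ubiquitin ligase. Oxidants and electrophiles modify KEAP1, NRF2 then builds up, pairs with small MAF proteins and binds antioxidant response elements in the DNA of its target genes, and this pathway is often active in hepatocellular carcinoma. KIAA1429, also called VIRMA, is a scaffold of the complex that writes N6-methyladenosine (m6A) into mRNA.

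Values are FPKM, fragments mapped to a transcript scaled by its length and by the library's size, so each is a share of the RNA in its own precipitate. Every listed transcript had a mean of at least 0.5001 FPKM in IgG RIP or in KIAA1429 RIP, which is the lowest value seen and not a stated rule. Gene totals add up the listed transcripts of a gene. The libraries summed to 295573, 315446, 337041 and 340300 FPKM in the order IgG RIP replicates 1 and 2 and KIAA1429 RIP replicates 1 and 2, which is the order of all series of values given without library names. The numbers of reads are unknown, so no counting error is given. Liver and epithelial markers fitted the cell line's label in part. AFP, the fetal liver protein, stood at 121, 128, 99.1 and 115 FPKM, and KRT18, a keratin of simple epithelia, was the most abundant of that list. Of its 11 genes, 10 were listed, with summed levels of 1812, 1611, 1985 and 1814 FPKM. HNF4A, a regulator of the hepatocyte state, was at 1.11 FPKM or less in each library, and CDH1 is not analysed here. Of the leukocyte, endothelial and fibroblast markers, CD68 alone had values, at 34.5, 72.2, 28.7 and 43.9 FPKM.

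Together the 8 NRF2 targets made up 683.4 and 633.7 FPKM in IgG RIP, against 824.7 and 849.4 FPKM in KIAA1429 RIP, which was 0.231%, 0.201%, 0.245% and 0.25% of the listed FPKM. TXNRD1 was the most abundant by its mean over the 4 libraries, at 360 FPKM, and ranked 112 among all gene totals. PRDX1 followed at 205 FPKM and GSTP1 at 130 FPKM, and the ranges of these neighbours overlapped. SRXN1 stood apart from its neighbours on both sides, at 29.7 FPKM. GCLM at 8.91 FPKM, GCLC at 7.08 FPKM, AKR1C1 at 4.10 FPKM and NQO1 at 2.61 FPKM formed the low end, where each gene's range overlapped that of the next. For comparison, VIRMA had a mean of 14 FPKM in IgG RIP.

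**Figure D1:**
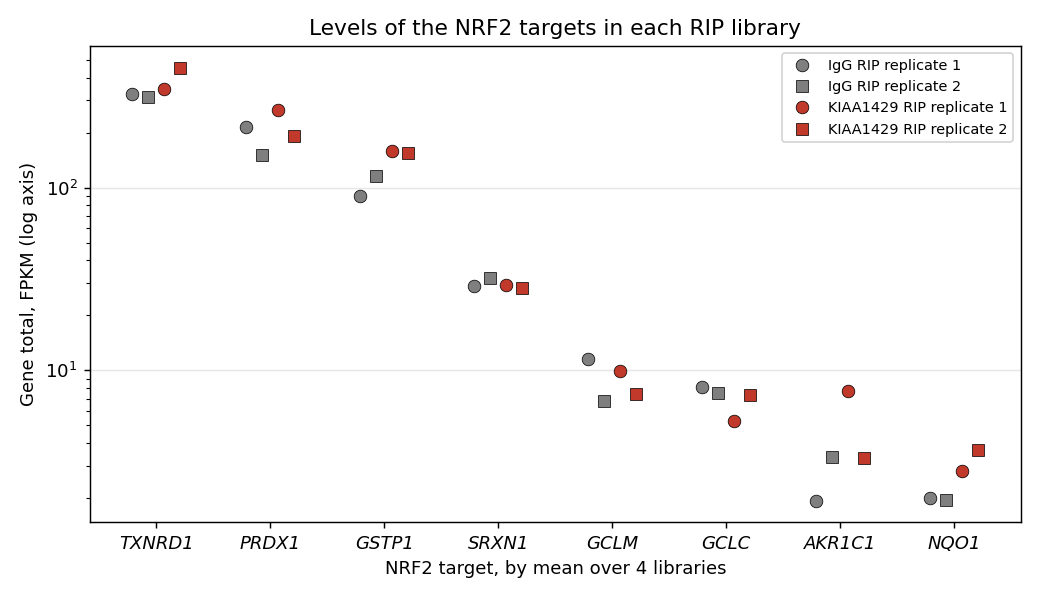
FPKM of each NRF2 target gene total on a log axis, genes ordered by their mean, with grey points for IgG RIP and red points for KIAA1429 RIP (circles replicate 1, squares replicate 2). Levels span from about 2.61 FPKM for NQO1 to 360 FPKM for TXNRD1 as means, and the red points lie above the grey ones in NQO1, GSTP1 and TXNRD1, the last overlapping after quantile normalization.

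Of the 8 targets, 3 gene totals had both KIAA1429 RIP libraries above both IgG RIP libraries (NQO1, TXNRD1 and GSTP1) and 1 had both below (GCLC). Among the 11361 gene totals with a mean of at least 1 FPKM, 16.6% lay wholly higher and 15.2% wholly lower in KIAA1429 RIP. The median log2 fold change of the targets, on the scale of log2(FPKM + 1), was 0.31 beside 0.02 over all gene totals, and 5 targets were above 0 and 3 below. After quantile normalization of the libraries that median was 0.03 beside -0.03, TXNRD1 was no longer wholly higher and SRXN1 was wholly lower. With 1 library left out at a time, the median of the targets was 0.17 to 0.38, beside -0.08 to 0.09 over all gene totals. None of the 8 passed limma's test at an adjusted p under 0.05 with a log2 fold change beyond 1, and neither did any other gene total, so the share called was 0.0%. At an unadjusted p under 0.05 limma took 0 of the 8 targets and 4.59% of all gene totals. The adjusted p of the targets ran from 0.997 to 0.998. For 1 gene, the smallest p that an exact permutation test over 2 and 2 libraries can give is 0.333.

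**Figure D2:**
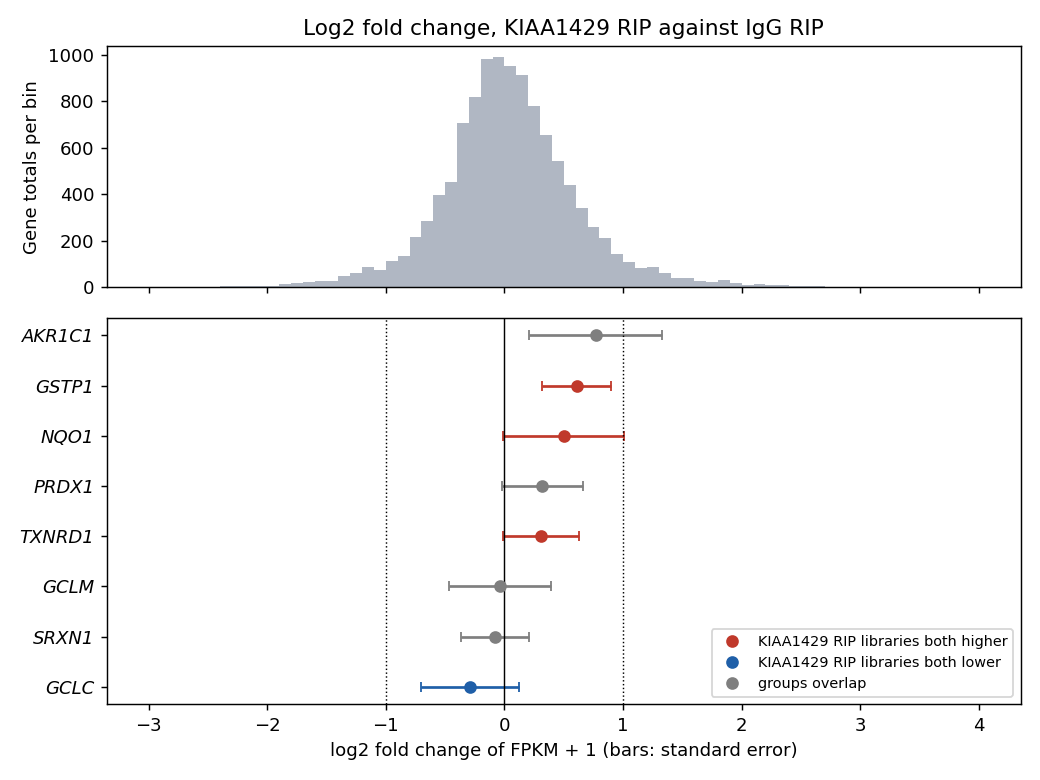
The upper panel counts all 11361 gene totals by log2 fold change of FPKM + 1 between KIAA1429 RIP and IgG RIP, and the lower panel gives each NRF2 target with its standard error, in red or blue where the groups do not overlap. The targets lie between -0.29 for GCLC and 0.77 for AKR1C1, inside the dotted lines at 1 and -1, and TXNRD1 changes sign to -0.05 after quantile normalization.

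GSTP1 encodes the pi-class glutathione S-transferase, which joins glutathione to electrophiles. It has a single listed transcript, ENST00000398606 (gene ENSG00000084207, chr11:67351066-67354131, plus strand, GRCh37), so its gene total is the value of that transcript. Fragments given to transcripts that are not listed are not seen. GSTP1 was at 89.9 and 116 FPKM in IgG RIP and at 158 and 155 FPKM in KIAA1429 RIP. Both KIAA1429 RIP libraries were close to each other and above both IgG RIP libraries, of which replicate 1 was the lower. The means were 103 ± 18.6 and 156 ± 2.24 FPKM (SD, n = 2), a ratio of 1.52, and the log2 fold change was 0.61 with a standard error of 0.29 and an adjusted p of 0.997 by limma. Leaving out IgG RIP replicate 1 brought the log2 fold change to 0.42, and leaving out IgG RIP replicate 2 to 0.79.

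GSTP1 also had the highest density of GGAC, the letters the study names as the m6A motif, among the most abundant transcripts of the targets, of which 7 could be matched to a sequence. The GENCODE v44 model of this transcript holds 7 GGAC in 741 bases, or 9.45 per kb, against a median of 3.60 per kb over the most abundant transcripts of 11063 genes. The first 5 lie in the coding sequence, in exons 4, 5 and 7, and the other 2 lie in the 3′ untranslated part of exon 7. They are shown on the transcript's strand, with 10 bases on each side and the motif in capitals, because the antibody was raised against a member of the m6A writer complex. A match is only these letters, and methylation was not measured here.
GSTP1 site 1, exon 4, chr11:67352172-67352195: ccaagttccaGGACggagacctca
GSTP1 site 2, exon 5, chr11:67352612-67352635: tctatgggaaGGACcagcaggagg
GSTP1 site 3, exon 5, chr11:67352636-67352659: cagccctggtGGACatggtgaatg
GSTP1 site 4, exon 5, chr11:67352660-67352683: acggcgtggaGGACctccgctgca
GSTP1 site 5, exon 7, chr11:67353876-67353899: acaacctgctGGACttgctgctga
GSTP1 site 6, exon 7, chr11:67354048-67354071: agggttggggGGACtctgagcggg
GSTP1 site 7, exon 7, chr11:67354088-67354111: cctttctccaGGACcaataaaatt

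NQO1 encodes NAD(P)H quinone dehydrogenase, which reduces quinones by a pair of electrons at once and is a standard readout of NRF2 activity. Its single listed transcript, ENST00000320623 (gene ENSG00000181019, chr16:69743304-69760854, minus strand), was at 2.01 and 1.96 FPKM in IgG RIP and at 2.80 and 3.68 FPKM in KIAA1429 RIP. The groups did not overlap, but all values were low, and the gap between the KIAA1429 RIP libraries was about as wide as the gap between the groups. The ratio of means was 1.63 and the log2 fold change was 0.50 with a standard error of 0.51 (limma, adjusted p = 0.997). At this level the pseudocount of 1 FPKM makes the log2 value smaller than the ratio.

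AKR1C1 encodes an aldo-keto reductase that reduces ketosteroids and reactive aldehydes (gene ENSG00000187134, chr10:5005445-5025475, plus strand). Its total was 1.94 and 3.38 FPKM in IgG RIP, against 7.76 and 3.30 FPKM in KIAA1429 RIP. KIAA1429 RIP replicate 1 stood above the rest, replicate 2 lay within the IgG range, and the groups overlapped. The ratio of means, 2.08, was the largest of the targets and rested on that library: the log2 fold change was 0.77 with a standard error of 0.56 (limma, adjusted p = 0.997). It was 0.26 without KIAA1429 RIP replicate 1, 0.49 without IgG RIP replicate 1, 1.06 without IgG RIP replicate 2 and 1.29 without KIAA1429 RIP replicate 2. Within that library 4.86 FPKM came from ENST00000442997, a protein-coding transcript listed at 0 in the other libraries. The remaining transcripts were steadier. ENST00000380872, which spans the gene, was at 1.10, 1.41, 1.02 and 1.41 FPKM. ENST00000476100, which is not annotated as coding and had the highest mean of the gene, was at 0.84, 1.97, 1.89 and 1.89 FPKM.

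The AKR1C genes are close copies, and reads may be placed on either copy. Of the 50-base stretches of ENST00000380872, 22.3% occur exactly in transcripts of AKR1C2 and 2.1% in those of AKR1C3, so values of this gene are uncertain. AKR1C2 itself, a reductase of 3-ketosteroids, was at 0.61 FPKM, listed at 0, at 0.82 and at 0.50 FPKM, and AKR1C3 is not analysed here.

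TXNRD1 encodes cytosolic thioredoxin reductase, the selenoprotein that keeps thioredoxin reduced with electrons from NADPH (gene ENSG00000198431, chr12:104680460-104744083, plus strand). Its total was 327 and 314 FPKM in IgG RIP, against 346 and 454 FPKM in KIAA1429 RIP. The groups did not overlap, yet KIAA1429 RIP replicate 1 lay just above the IgG libraries and most of the difference came from replicate 2. The means were 321 ± 9.18 and 400 ± 76.2 FPKM (SD, n = 2), with a log2 fold change of 0.31 and a standard error of 0.32 (limma, adjusted p = 0.997), which was -0.05 after quantile normalization. Without KIAA1429 RIP replicate 2 the log2 fold change was 0.11, and without KIAA1429 RIP replicate 1 it was 0.5. EID3, a short gene inside the same span and on the same strand, was at 2.64, 4.38, 6.14 and 2.0 FPKM, and reads in the shared span could fall to either gene.

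Some transcripts of TXNRD1 shifted more between libraries than its total did. All 14 listed ones were of the type protein_coding. ENST00000526950, the most abundant by its mean, was at 139 and 18.1 FPKM in IgG RIP and at 123 and 20.8 FPKM in KIAA1429 RIP. It held 42.4% and 35.6% of the gene total in the libraries numbered 1 and 5.8% and 4.6% in those numbered 2, so it was high or low by replicate number and not by antibody. ENST00000397736 was at 12.6 and 168 FPKM in IgG RIP and at 8.63 and 5.22 FPKM in KIAA1429 RIP. Its groups did not overlap, but IgG RIP replicate 2 alone was high, where it held 53.5% of the total. ENST00000354940 was at 16.7, 10.9 and 13.1 FPKM in the first 3 libraries and at 219 FPKM in KIAA1429 RIP replicate 2, or 48.3% of that total.

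ENST00000526390 was listed at 0 in both IgG RIP libraries and was at 70.0 and 1.13 FPKM in KIAA1429 RIP. Nearly all of its signal therefore lay in KIAA1429 RIP replicate 1, and no ratio is given against a group at 0. ENST00000526580, a short transcript whose span ends at base 104712721, was at 33.5 and 16.1 FPKM in IgG RIP and at 36.1 and 49.9 FPKM in KIAA1429 RIP. Its groups did not overlap, with IgG RIP replicate 1 close to KIAA1429 RIP replicate 1. By contrast ENST00000503506, shown for its evenness after its values were seen, was at 44.5, 58.9, 39.8 and 48.4 FPKM. How fragments were divided among these transcripts is not given in the sources used here. The leading transcript differed between libraries, with 3 different transcripts taking first place.

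**Figure D3:**
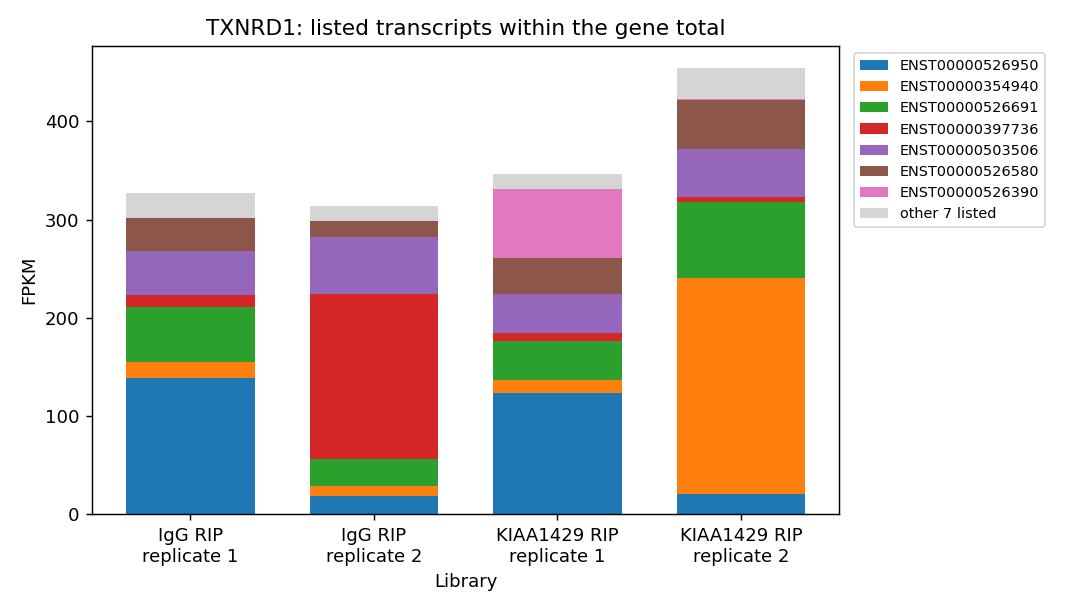
FPKM of the listed TXNRD1 transcripts stacked to the gene total in each library, the 7 most abundant in colour and the other 7 in grey. The totals range from 314 to 454 FPKM, while ENST00000397736 reaches 168 FPKM in IgG RIP replicate 2 alone and ENST00000354940 reaches 219 FPKM in KIAA1429 RIP replicate 2 alone.

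PRDX1 encodes a peroxiredoxin, an abundant cytosolic enzyme that removes peroxides and is recharged by thioredoxin (gene ENSG00000117450, chr1:45976708-45988719, minus strand). Its total was 214 and 152 FPKM in IgG RIP, against 266 and 191 FPKM in KIAA1429 RIP. In each group replicate 1 was above replicate 2, and the groups overlapped because KIAA1429 RIP replicate 2 lay below IgG RIP replicate 1. Between libraries of the same number the ratio was 1.24 and 1.26, but the labels do not say that equal numbers mark a shared experiment. The log2 fold change was 0.32 with a standard error of 0.34 (limma, adjusted p = 0.997). It ranged from 0.07 without IgG RIP replicate 2, and 0.08 without KIAA1429 RIP replicate 1, to 0.57 without IgG RIP replicate 1, and was 0.10 after quantile normalization. ENST00000319248 made up most of the gene, at 195, 123, 251 and 167 FPKM, or from 81.3% to 94.5% of the total. MMACHC, which overlaps PRDX1 on the opposite strand, was at 9.35, 4.47, 4.38 and 5.26 FPKM, and strand-specific counting is not stated. Pseudogene copies of PRDX1 exist, and 0.8% of the 50-base stretches of ENST00000319248 occur exactly in the transcript of one of them, PRDX1P1.

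SRXN1 encodes sulfiredoxin, which repairs peroxiredoxins that have been overoxidized (gene ENSG00000271303, chr20:627259-634014, minus strand). Its single listed transcript, ENST00000381962, was at 29.1 and 32.0 FPKM in IgG RIP and at 29.3 and 28.2 FPKM in KIAA1429 RIP. All libraries lay close together and the groups overlapped. The log2 fold change was -0.08 with a standard error of 0.29 (limma, adjusted p = 0.997). A further annotated gene, ENSG00000270299, shares 90.6% of the 50-base stretches of this transcript, so reads counted for SRXN1 may belong to either.

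GCLC and GCLM encode the catalytic and the modifier subunit of glutamate-cysteine ligase, the enzyme of the rate-limiting step of glutathione synthesis. GCLC (gene ENSG00000001084, chr6:53362139-53409927, minus strand) was at 8.13 and 7.56 FPKM in IgG RIP and at 5.31 and 7.32 FPKM in KIAA1429 RIP. Both KIAA1429 RIP libraries were below both IgG RIP libraries, although replicate 2 was lower by a narrow margin. The ratio of means was 0.80 and the log2 fold change was -0.29 with a standard error of 0.41 (limma, adjusted p = 0.997). That log2 fold change was -0.09 without KIAA1429 RIP replicate 1 and -0.49 without KIAA1429 RIP replicate 2. The most abundant transcript, ENST00000229416, went the other way, at 5.71, 1.89, 4.80 and 5.60 FPKM with overlapping groups and a log2 fold change of 0.49. The lower total came from ENST00000514004, at 2.40 and 4.51 FPKM in IgG RIP, listed at 0 in KIAA1429 RIP replicate 1 and at 1.70 FPKM in replicate 2.

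GCLM (gene ENSG00000023909, chr1:94350761-94375012, minus strand) was at 11.5 and 6.79 FPKM in IgG RIP and at 9.87 and 7.46 FPKM in KIAA1429 RIP. Both KIAA1429 RIP values lay inside the IgG range. The log2 fold change was -0.04 with a standard error of 0.43 (limma, adjusted p = 0.998), and leaving out 1 library at a time moved it between -0.39 and 0.30. At least 89.6% of the total in each library belonged to ENST00000370238, at 10.3, 6.79, 9.87 and 7.43 FPKM. In this transcript GGAC was sparse, with 3 in 4883 bases or 0.61 per kb, all in the 3′ untranslated part of exon 7. They are shown beside those of GSTP1 as the lowest density among those transcripts, on the transcript's strand with the motif in capitals.
GCLM site 1, exon 7, chr1:94353609-94353632: tgactaggaaGGACtaaaagccag
GCLM site 2, exon 7, chr1:94352280-94352303: ttataaccctGGACttataaaaat
GCLM site 3, exon 7, chr1:94351938-94351961: aaatatttaaGGACttaatgttta

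Between these extremes lay ENST00000381962 of SRXN1 with 13 GGAC in 2528 bases (5.14 per kb), ENST00000526950 of TXNRD1 with 4.27 per kb, ENST00000320623 of NQO1 with 3.57 per kb and ENST00000319248 of PRDX1 with 3.17 per kb. The median over the 7 genes whose most abundant transcript could be matched was 4.21 per kb beside 3.60 over all, and 4 of the 7 were above that value. GGAC was searched on the transcript strand alone and occurs in 98.5% of the transcripts compared, so its presence sets no target apart. Of the 30 listed transcripts, 24 had a sequence in the annotation used, and 14 of these had the same start and end as in the data. Among the 7 most abundant transcripts compared, that of AKR1C1 alone did, and the model of GSTP1 starts 217 bases later, while that of TXNRD1 starts far upstream. The densities therefore describe the annotated models and not the spans in the data.

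At the transcript level, 26 of the 30 transcripts passed the mean of 1 FPKM. Of these 26, 5 were wholly higher and 3 wholly lower in KIAA1429 RIP, beside 15.2% wholly higher and 14.5% wholly lower among all 23375 transcripts tested. Their median log2 fold change was 0.03 beside 0.01 over all. The limma call took 0 of the 26, as it took 0.0% of all transcripts, and an unadjusted p under 0.05 took 0 of the 26 and 5.36% of all. The lowest log2 fold change was -2.63 for ENST00000397736, with a standard error of 1.24. The highest belonged to ENST00000526390, where its size against a group at 0 depends on the added 1 FPKM and is not given.

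The antioxidant response element was looked for in promoters, from 250 bases before to 50 bases after the gene start, with the core TGACNNNGC read on both strands. RefSeq promoters (GRCh38.p14) were at hand for 7 of the 9 genes, with 2 for TXNRD1, and PRDX1 and AKR1B10 are named only. The core occurred in 4 of these 8 promoters, belonging to TXNRD1, GCLM and GSTP1, and in 13.3% of the 35116 promoters of the table. The windows of NQO1, GCLC, SRXN1 and AKR1C1 did not hold these letters, which says nothing of elements farther away. The matches are printed on the strand that reads TGACNNNGC, with the core in capitals, since NRF2 is known to bind this element. They are descriptions of the reference sequence, and binding was not measured.
GSTP1, plus strand, chr11:67583736-67583764: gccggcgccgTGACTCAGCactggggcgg
GCLM, plus strand, chr1:93909446-93909474: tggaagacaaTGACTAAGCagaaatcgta
TXNRD1 promoter 1, plus strand, chr12:104215670-104215698: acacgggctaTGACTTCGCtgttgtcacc
TXNRD1 promoter 1, minus strand, chr12:104215761-104215789: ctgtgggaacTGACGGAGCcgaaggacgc
TXNRD1 promoter 2, minus strand, chr12:104286920-104286948: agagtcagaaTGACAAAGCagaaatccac

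The wider pathway was read from 47 other genes in lists by role, of which 43 had values and 42 passed the mean of 1 FPKM. None of the 42 was called by limma (adjusted p from 0.997 to 0.999), and 2, MGST1 and TXNRD2, had an unadjusted p under 0.05, beside 4.59% of all gene totals. Both KIAA1429 RIP libraries were above both IgG RIP libraries for 11 genes, or 26.2%, and below for 2 genes, or 4.76%, beside 16.6% and 15.2% of all gene totals. The median log2 fold change was 0.17 beside 0.02 over all gene totals, and 0.08 beside -0.03 after quantile normalization.

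Most of the higher genes were in the list for glutathione and thioredoxin. Of its 9 genes with values, 7 were wholly higher in KIAA1429 RIP and none was wholly lower, beside 16.6% and 15.2% of all gene totals, and the median log2 fold change was 0.52. The counts were the same after either of the other scalings, and the list was chosen with earlier results of these data known. It leaves out the NRF2 targets of like role. Of those, before rescaling, GCLC was wholly lower, GCLM, SRXN1 and PRDX1 overlapped, and TXNRD1 and GSTP1 were wholly higher. TXN, the thioredoxin that TXNRD1 reduces, was at 102 and 141 FPKM in IgG RIP and at 226 and 172 FPKM in KIAA1429 RIP, with a log2 fold change of 0.71 and a standard error of 0.32. MGST1, a glutathione transferase of membranes, was at 25.9 and 23.2 FPKM in IgG RIP and at 63.7 and 35.8 FPKM in KIAA1429 RIP, where replicate 1 was far above replicate 2. TXNRD2, the mitochondrial thioredoxin reductase, was at 11.4, 14.5, 29.8 and 19.7 FPKM, with the same order of libraries in the KIAA1429 RIP group.

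PRDX6, a peroxiredoxin that uses glutathione, was at 71.3, 69.0, 89.3 and 115 FPKM. GSS, glutathione synthetase, was even within each group, at 16.3 and 16.1 FPKM in IgG RIP and at 21.6 and 20.7 FPKM in KIAA1429 RIP. SLC7A11, which imports cystine for glutathione synthesis, was at 20.4, 15.9, 24.5 and 20.6 FPKM, so KIAA1429 RIP replicate 2 barely exceeded IgG RIP replicate 1. GSTM3, a mu-class glutathione transferase, was low throughout, at 1.14, 1.57, 5.24 and 2.47 FPKM. The other genes of the list were GSR, glutathione reductase, with a log2 fold change of -0.13, and GSTA4, with -0.15, both with overlapping groups.

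The regulators of NRF2 showed smaller differences, with a median log2 fold change of -0.09 over 12 genes. NFE2L2, the mRNA of NRF2 itself, was at 34.0 and 33.0 FPKM in IgG RIP and at 30.0 and 29.7 FPKM in KIAA1429 RIP. Its groups did not overlap and its replicates were close, but the ratio of means was 0.89 and the log2 fold change -0.16 with a standard error of 0.29 (limma, adjusted p = 0.997). KEAP1 was at 13.0, 15.3, 9.26 and 17.8 FPKM, with the KIAA1429 RIP libraries on both sides of the IgG libraries. SQSTM1, the autophagy receptor that sequesters KEAP1, was at 140, 265, 164 and 294 FPKM, and followed the replicate number more than the antibody. MAFG, a small MAF partner of NRF2, was at 13.6, 11.4, 16.4 and 14.4 FPKM, and NFE2L1, a related factor that governs proteasome genes, at 37.3, 35.4, 45.6 and 44.8 FPKM. Both were wholly higher, with log2 fold changes of 0.28 and 0.31.

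The groups overlapped in all 4 genes of NADPH supply, whose median log2 fold change was 0.02 and turned to -0.09 after quantile normalization. Of these, PGD, a dehydrogenase of the pentose phosphate pathway named after its values were seen, was wholly lower in KIAA1429 RIP after either of the other scalings, and TALDO1, transaldolase, was wholly higher after median scaling. HMOX1, heme oxygenase, was at 17.8, 27.2, 14.1 and 32.7 FPKM, and all 6 heme and iron genes had overlapping groups. After quantile normalization FTL, a ferritin subunit, was wholly higher, and FTH1, the other subunit, turned from a log2 fold change of 0.27 to -0.11, both named after their values were seen. In the list for detoxification and export, CBR1, a carbonyl reductase, was wholly higher, at 18.6, 11.1, 25.4 and 23.0 FPKM, and the other 7 tested genes overlapped. PIR, an iron-binding nuclear protein, was also wholly higher, at 1.12, 3.77, 6.95 and 6.21 FPKM, with the largest log2 fold change of the 42, at 1.25 with a standard error of 0.56. TRIM16, a ubiquitin ligase, was wholly lower, at 6.92, 9.95, 6.79 and 4.85 FPKM, but overlapped after either of the other scalings.

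**Figure D4:**
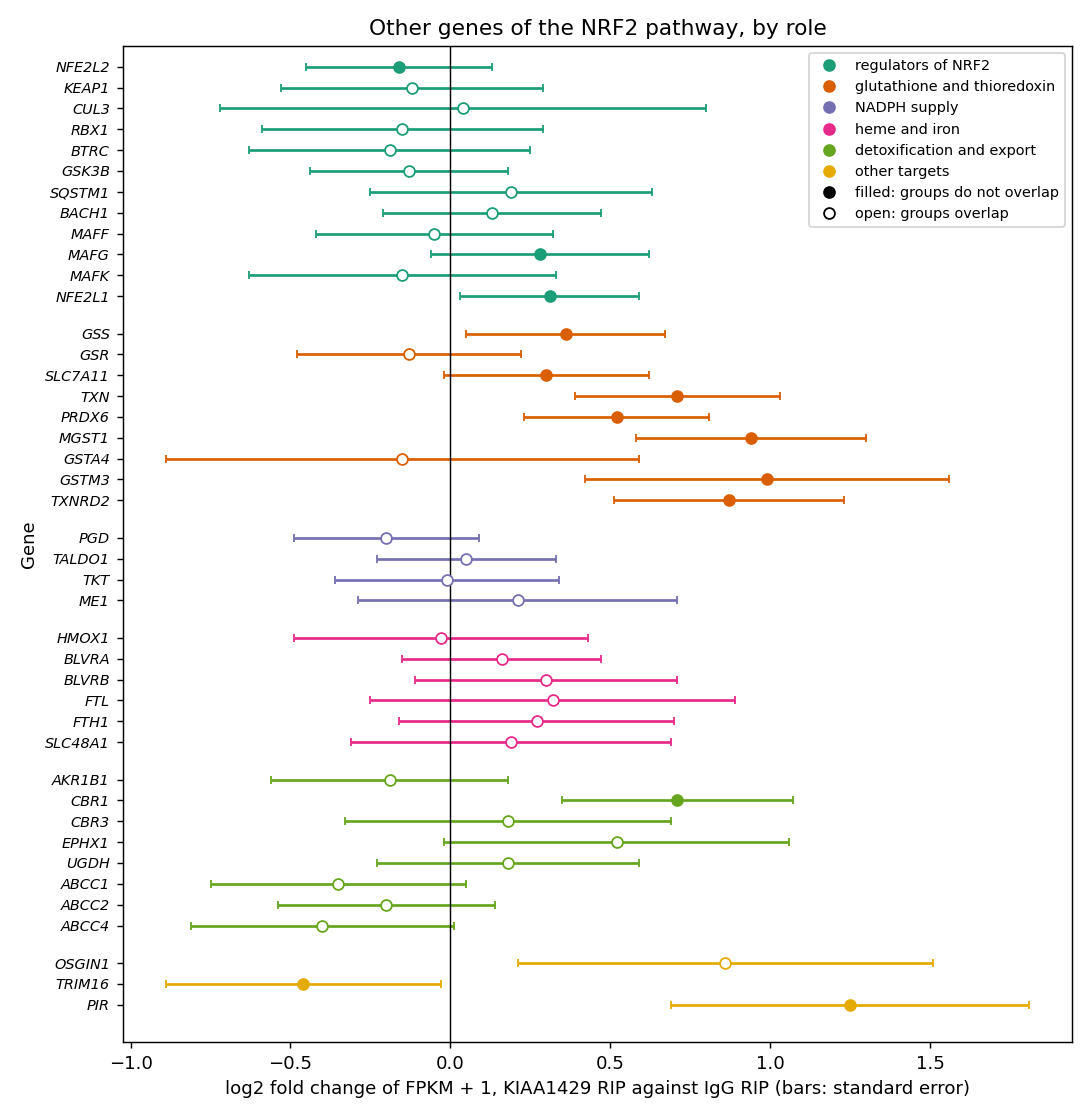
Log2 fold change of FPKM + 1 between KIAA1429 RIP and IgG RIP for the 42 other NRF2 pathway genes, with standard errors, grouped and coloured by role, filled where the groups do not overlap. In the glutathione and thioredoxin list 7 of 9 points are filled and lie above 0, and the regulators centre on -0.09.

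Transcript length moved with the difference between precipitates across all genes. Where the most abundant transcript was up to 1000 bases long, the median log2 fold change of 1436 gene totals was 0.27, and 27.9% of them were wholly higher and 11.4% wholly lower in KIAA1429 RIP. From 1000 to 2000 bases the median was 0.12, with 22.8% wholly higher and 10.8% wholly lower, and from 2000 to 4000 bases it was 0.03, with 15.9% and 14.8%. Above 4000 bases the median of 3738 gene totals was -0.08, with 9.4% wholly higher and 19.3% wholly lower. Lengths here were those of the annotated models. By these, GSTP1 with 741 bases, PRDX1 with 945 and AKR1C1 with 713 belonged to the shortest class. GCLM with 4883 belonged to the longest, whereas NQO1 with 2521, SRXN1 with 2528 and TXNRD1 with 2110 were of middle length. The ends of the PRDX1 model are shifted by 4 and -72 bases from the data's span, and the TXNRD1 model starts far upstream. The classes of both, near the limits of 1000 and 2000 bases, are therefore uncertain. That of AKR1C1 is uncertain too, because its leading transcript differed between libraries. Its 713 bases are those of ENST00000476100, at a mean of 1.64 FPKM, whereas ENST00000380872, at a mean of 1.24 FPKM, has a model of 6543 bases. Of the other pathway genes of known length, 2 of 5 were wholly higher in the shortest class, 4 of 12 and 0 of 12 in the middle classes and 4 of 8 in the longest, and the 2 wholly lower genes had 2000 to 4000 bases. The part of length in the values of the NRF2 targets was not tested.

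For comparison, VIRMA, the mRNA of the precipitated protein, was at 17.95 and 10.01 FPKM in IgG RIP and at 18.2 and 11.6 FPKM in KIAA1429 RIP, with overlapping groups. GAPDH, a glycolytic enzyme, was at 432, 779, 602 and 1076 FPKM, also overlapping. ACTB, the cytoplasmic beta-actin, was at 555 and 403 FPKM in IgG RIP and at 304 and 224 FPKM in KIAA1429 RIP. It was wholly lower, with a log2 fold change of -0.86 and a standard error of 0.35 (limma, adjusted p = 0.997).

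Over the 4 libraries, the genes outside the NRF2 targets whose profile lay nearest to that of their summed level were ZMAT2, TPM2 and TERF2IP. Likeness was the Euclidean distance between log2(FPKM + 1) values, each gene centred on its own mean, over 5163 gene totals of at least 10 FPKM. ZMAT2 was at a distance of 0.028, with 19.7 and 18.1 FPKM in IgG RIP, against 24.5 and 24.7 FPKM in KIAA1429 RIP. TPM2 was at 65.9, 62.1, 79.5 and 80.5 FPKM and TERF2IP at 9.65, 8.62, 11.8 and 11.9 FPKM, both at a distance of 0.038. The sum is dominated by TXNRD1, PRDX1 and GSTP1, and 16 genes lay within a distance of 0.1.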

How the data were processed

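RNA co-precipitated with KIAA1429 or normal IgG from HCCLM3 cells was sequenced by the study in 2 libraries per antibody, grouped and numbered by their labels. The authors isolated poly(A) RNA, fragmented it and primed cDNA at random, and they deposited FPKM per transcript. The methods name HISAT2 and GRCh37/hg19, whereas the submitters' processing notes name Bowtie2 2.1.0; the FPKM tool and annotation release are not given in the sources used here. Deposited FPKM were summed per gene name. Features with a mean of at least 1 FPKM were tested as log2(FPKM + 1) in limma 3.58.1 (R 4.3.3) by two-sided tests with lmFit, then eBayes with a trend, and p-values were adjusted by Benjamini-Hochberg over all features. The limma steps were run on simulated data with larger differences than those of the targets, which checks the code and not the power here. A call needed an adjusted p under 0.05 and a log2 fold change beyond 1. Exact zeros are described as listed at 0, and read depth is unknown.

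Named were the members with every value, their most abundant transcripts and those of at least 10 FPKM with groups that do not overlap, and 7 pathway genes whatever their values (NFE2L2, KEAP1, HMOX1, SQSTM1, TXN, AKR1C2 and AKR1C3). Pathway genes with groups that do not overlap, 3 comparison genes and the 3 nearest profiles were named too. Some items of the lists are not reported here. The members and lists were chosen with earlier results of these data known. Transcript sequences came from GENCODE v44 lifted to GRCh37 and promoters from RefSeq (GRCh38.p14). Length classes and shared 50-base stretches were computed in Python 3.11.15 after the values were seen. Alternatives were other pseudocounts, filters, scalings, gene definitions, variance priors, the replicate block and leaving out each library.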

Additional observations from a re-analysis of the deposited data

How the results depend on the processing

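Across 14 alternatives, 162 of 170 recomputed values were rated the same. A fold change had to keep its direction and its side of the threshold, and a median had to stay within the replicate spread. A count was allowed a small change, so the falls from 3 to 2 given below are among the 162. Counts of 0 called are among them too. The counts of called NRF2 target gene totals, target transcripts and other pathway genes were 0 under each alternative run. The median log2 fold change of the targets, 0.31, was 0.03 after quantile normalization and 0.13 over the 6 genes left by a filter at a mean of 5 FPKM, and leaving out 1 library at a time gave 0.17 to 0.38, where the lone library of a group is assumed to vary like the other group. The count of targets wholly higher fell from 3 to 2, as TXNRD1 overlapped, both after quantile normalization and with the most abundant transcript in place of the gene total. The count of targets wholly lower in KIAA1429 RIP, 1, was 2 after quantile normalization and 0 with the most abundant transcript. Over all gene totals, quantile normalization turned the balance from 16.6% wholly higher and 15.2% wholly lower to 15.3% and 17.2%. TXNRD1 turned from 0.31 to -0.05 after quantile normalization. With the most abundant transcript, GCLM turned from -0.04 to 0.03 and GCLC from -0.29 to 0.49, TXNRD1 moved from 0.31 to 0.01 and AKR1C1 from 0.77 to 0.31. Leaving out 1 library at a time moved GCLM from -0.39 to 0.30, above 0 without IgG RIP replicate 1 (0.30) and without KIAA1429 RIP replicate 2 (0.14). A gene total and its most abundant transcript differ by construction, and the cause of the other shifts was not tested. NQO1 and AKR1C1 gave no value under the filter at a mean of 5 FPKM.

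The labels do not say that libraries with the same replicate number are paired. Deviations of libraries with the same number correlated at 0.187 over gene totals and 0.03 over transcripts, across genes that are not independent. With the replicate number as a block, 0 of the 8 targets and 0 of the 42 other pathway genes were called, against 13 of all gene totals, and the lowest adjusted p of the targets was 0.476, for GSTP1. Among the targets, the unadjusted limma p of this block fit was under 0.05 for GSTP1 alone (0.0302), against 0 of 8 without the block. Among the other pathway genes it was under 0.05 for TXN, MGST1, TXNRD2, CBR1 and PIR, against MGST1 and TXNRD2 without the block. The share of all gene totals under 0.05 in the block fit is not given. These counts therefore have no background to be set against and are not read as a result about these genes.

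With 2 libraries per group and unknown depth, small differences in genes at a few FPKM, such as NQO1 and AKR1C1, were not resolved, and levels of overlapping or copied transcripts are estimates.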
